A study of Arabidopsis thaliana with 28 samples.

Results

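A set of 177 transcripts had low signals in Arabidopsis shoots 6 h or 12 h after a short drying treatment and stood close to or above their first level at 24 h. Where the root signal was bright enough to show it, there was no loss of the same size in roots at 6 h. The selection did not look at roots at 12 h, when some of the transcripts were low in roots too. All were selected on the measured values from the 22746 probe sets of the ATH1 array, its 64 AFFX controls not counted. A probe set is the group of short probes that reads out a transcript, and its signal is a brightness on a linear scale. Group mean signals were first raised to a floor of 20. A member then had a shoot mean of at least 100 at 0.25 h, a mean at 6 h or 12 h in shoots of at most 0.333 times that level, a shoot mean at 24 h of at least 0.7 times it, and a root mean at 6 h above 0.5 times the root mean at 0.25 h. Because of the floor, the root condition could not fail for the 54 members with a root mean under 20 at 0.25 h. One of them, AT1G64500, had root means of 18.1 at 0.25 h and 2.63 at 6 h. Of the 177 probe sets, 73 were paired with a single gene in the platform table, which makes 72 distinct genes because AT5G54130 has 2 of them. The other 104 have no gene in that table and carry only their probe set names here.

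The plants were Arabidopsis thaliana of the Columbia accession (Col-0), 16 days old, and every plant was dried: none of the arrays used here came from untreated plants. Dry air was passed over them for 15 min, starting 3 h into a day with 16 h of light at 24 °C, and they lost 10% of their fresh weight before they were moved to closed vessels. RNA of shoots and of roots was hybridised separately at 0.25, 0.5, 1, 3, 6, 12 and 24 h after the start of the treatment, on 2 arrays per organ and time, 28 arrays in all. Nothing in the labels tells whether both arrays of a group stand for separately grown plants, and the p-values therefore reflect the spread between these arrays, which may be a technical one. Time after drying and hour of the day cannot be told apart: the 6 h harvest came after 9 h of light and the 12 h harvest after 15 h, while the 24 h harvest came after 3 h of light on the next day.

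As background, leaf cells that lose water close their stomata and lower the transcripts of many growth and primary metabolism genes, and many of the same transcripts also swing over the day under the circadian clock and light. Sucrose phosphate synthase, asparaginase, expansins, lipid transfer proteins and proteins of chloroplast movement are among the leaf products encoded by the transcripts described here. Roots lose water too, and respond with a partly different set of transcripts.

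The arrays were alike in overall brightness, with medians of 36.6 to 40.3 in shoots and 43.1 to 46.7 in roots. The 2 arrays of a group correlated at r = 0.976 or above on the log2 scale in 12 groups. The exceptions were the shoot groups at 0.5 h and 1 h, with r = 0.953 and 0.955, and there the arrays matched across the labels: replicate 1 at 0.5 h with replicate 2 at 1 h, and replicate 2 at 0.5 h with replicate 1 at 1 h, each at r = 0.982. Over the 177 transcripts the same matches gave r = 0.987 and 0.983, against 0.817 and 0.815 within the labelled groups. For that reason the 4 arrays of 0.5 h and 1 h were pooled in each organ as the reference of the tests, and the 2 matching pairs are also given one by one. The 5 leaf markers measured, RCA, PSAN, LHCB4.1, SBPASE and PRK, summed to 18578 to 26564 on shoot arrays and to 211 to 654 on root arrays. The 3 root markers, PYK10, EXPA7 and EXPA18, summed to 431 to 2046 on shoot arrays, nearly all of it from PYK10, and to 3120 to 4106 on root arrays.

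The transcripts split into 94 with their lowest shoot mean at 6 h and 83 with it at 12 h. The following values on the course in shoots are a description without a test. The selection used the shoot arrays of 0.25, 6, 12 and 24 h, and the 3 h values share their 0.25 h reference with it. Relative to 0.25 h, the median of the 94 was 0.453 at 3 h, 0.240 at 6 h, 0.492 at 12 h and 0.909 at 24 h. Among the 83 the median was 0.854 at 3 h, 0.495 at 6 h, 0.218 at 12 h and 1.16 at 24 h. In the first class the signal was thus already low at 3 h, when 56 of 94 had lost at least 50% of the 0.25 h signal, against 8 of 83 in the second. By 12 h, 47 of the 94 were back to at least 50%. Among the 83, a group of 20 had a 6 h mean at or above the 0.25 h mean, 9 of them by 1.5 times or more, so their low values were limited to 12 h among the times sampled. Only 29 of the 94 were also at or under 0.333 times at 12 h, and 19 of the 83 at 6 h. In bulk tissue such as this, fewer cells of a type and less RNA per cell cannot be told apart.

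**Figure D1:**
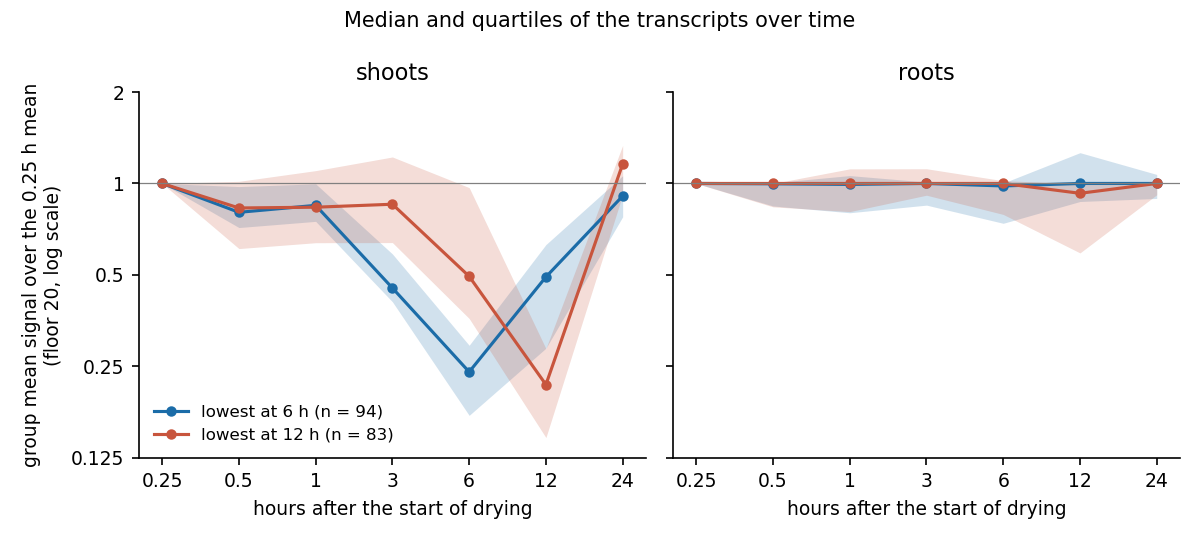
Group mean signal over the 0.25 h mean of the same organ (floor 20, log scale, vertical axis) at the 7 times after the start of drying (horizontal axis), for the 94 transcripts lowest at 6 h and the 83 lowest at 12 h; lines are medians over transcripts and bands run from the lower to the upper quartile. In shoots the medians reach 0.240 at 6 h and 0.218 at 12 h and return to 0.909 and 1.16 at 24 h, while root medians stay between 0.928 and 1. In roots 54 of the 177 transcripts were under the floor at 0.25 h, so a root fall of theirs cannot show here.

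The depth of the fall ranged widely. The lowest mean was 0.019 to 0.331 times the 0.25 h mean, with a median of 0.229, and 16 transcripts reached 0.1 times or less. On these arrays, which the selection used, both arrays of the lowest time lay under both arrays of 0.25 h in all 177, where 41% of the 22746 probe sets did the same for their own lower time. The values closest to the limits show that the set has no sharp edge. Just inside the depth limit were 260601_at at 0.3315 and AT3G07350 at 0.3311, and just outside AT4G33420 at 0.3338 and AT1G21500 at 0.3339. For the return at 24 h, AT5G12110 at 0.7001 and 263845_at at 0.7004 were just inside, and AT2G37600 at 0.6999 and 265547_at at 0.693 just outside. For the root condition, 260956_at at 0.503 and 249769_at at 0.512 were just inside, and 267517_at at 0.493 and 256751_at at 0.458 just outside. For the shoot level at 0.25 h, AT3G07350 at 104 and AT2G46735 at 107 were just inside, and AT5G19730 at 99.3 and AT5G47050 at 99.2 just outside. The rule applied to each replicate alone kept 119 of the transcripts in both.

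The deepest member, probe set 258497_at, has no gene in the table. Its shoot arrays read 1118 and 1015 at 0.25 h, 841 and 297 at 0.5 h, 289 and 981 at 1 h, 240.1 and 230.0 at 3 h, 29.4 and 27.0 at 6 h, 23.5 and 15.3 at 12 h and 1061 and 979 at 24 h. Of the 24 h arrays, 1061 thus lay between the 0.25 h values and 979 just under them. Its 14 root arrays read 0.966 to 6.85, near the low end of the array.

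Among members with a gene, AT1G62510 fell furthest. It encodes a protein of the lipid transfer and seed storage family, which carries or binds lipids outside the cell. Its shoot signal was 1365 and 1559 at 0.25 h, 1072 and 893 at 0.5 h, 1105 and 1102 at 1 h, 1040.3 and 1297 at 3 h, 401 and 401 at 6 h, 71.9 and 65.9 at 12 h and 1969.8 and 2464 at 24 h. It was the one member of the lipid transfer protein list that could be measured, and it changed little until after 3 h. AT1G55960, a START-domain lipid-binding protein, read 1781 and 1678 at 0.25 h, 583 and 547 at 3 h, 157 and 162 at 6 h, 142 and 110.1 at 12 h and 1588 and 1673 at 24 h. At 0.5 h and 1 h its arrays split by the matching pairs, 1309 and 1293 in the first and 512 and 564 in the second. Both transcripts were low at 6 h and 12 h. AT1G55960 was already near its lowest signal at 6 h, whereas AT1G62510 fell much further between 6 h and 12 h.

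AT1G64500, which encodes THRUMIN1, an actin-linked protein of the glutaredoxin fold that takes part in chloroplast movement under light, read 442 and 441 at 0.25 h, 169 and 191 at 3 h, 37.1 and 31.1 at 6 h, 104 and 99.4 at 12 h and 383 and 495 at 24 h. It had already partly returned at 12 h. AT2G15020 stood at 210.0 and 142 at 0.25 h, 131 and 121 at 3 h, 9.92 and 10.6 at 6 h, 34.4 and 30.8 at 12 h and 281 and 311 at 24 h, so its 24 h arrays were above both first arrays. THI2.2 (AT5G36910), a thionin and so a small antimicrobial peptide, read 681 and 574 at 0.25 h, 479 and 432 at 3 h, 291 and 253 at 6 h, 69.6 and 78.7 at 12 h and 626 and 590.4 at 24 h. AT2G41250, a haloacid dehalogenase-like hydrolase, read 523 and 498 at 0.25 h, 211 and 239 at 3 h and 68.4 and 68.0 at 6 h. It then read 60.6 and 51.7 at 12 h and 589 and 652 at 24 h. Its early shoot arrays differed by 3.47 times between the matching pairs. THI2.2 and AT2G41250 were both lowest at 12 h and ended near their first readings, but AT2G41250 was nearly as low at 6 h.

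The return at 24 h was close on average: the 24 h mean was 0.992 times the 0.25 h mean in the median member, and 86 of 177 were above it. In 14 members it was 1.5 times or more, up to 3.59 times in 252415_at, which has no gene in the table. Of named members, AT1G73480, of the monoacylglycerol lipase family, stood at 2.44 times and the expansin EXPA8 (AT2G40610), which loosens cell walls, at 2.34 times. AT1G73480 had also been far above its first level in between, with 136 and 109 at 0.25 h, 624 and 1119 at 0.5 h, 1274 and 506 at 1 h and 708 and 807 at 3 h, before 40.1 and 37.8 at 12 h. Its 0.25 h reading was thus a low point of its own. AT1G73480, 252415_at and 258497_at were singled out after their values were seen, as were AFR, GR1 and SAG29 among the transcripts that follow.

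**Figure D2:**
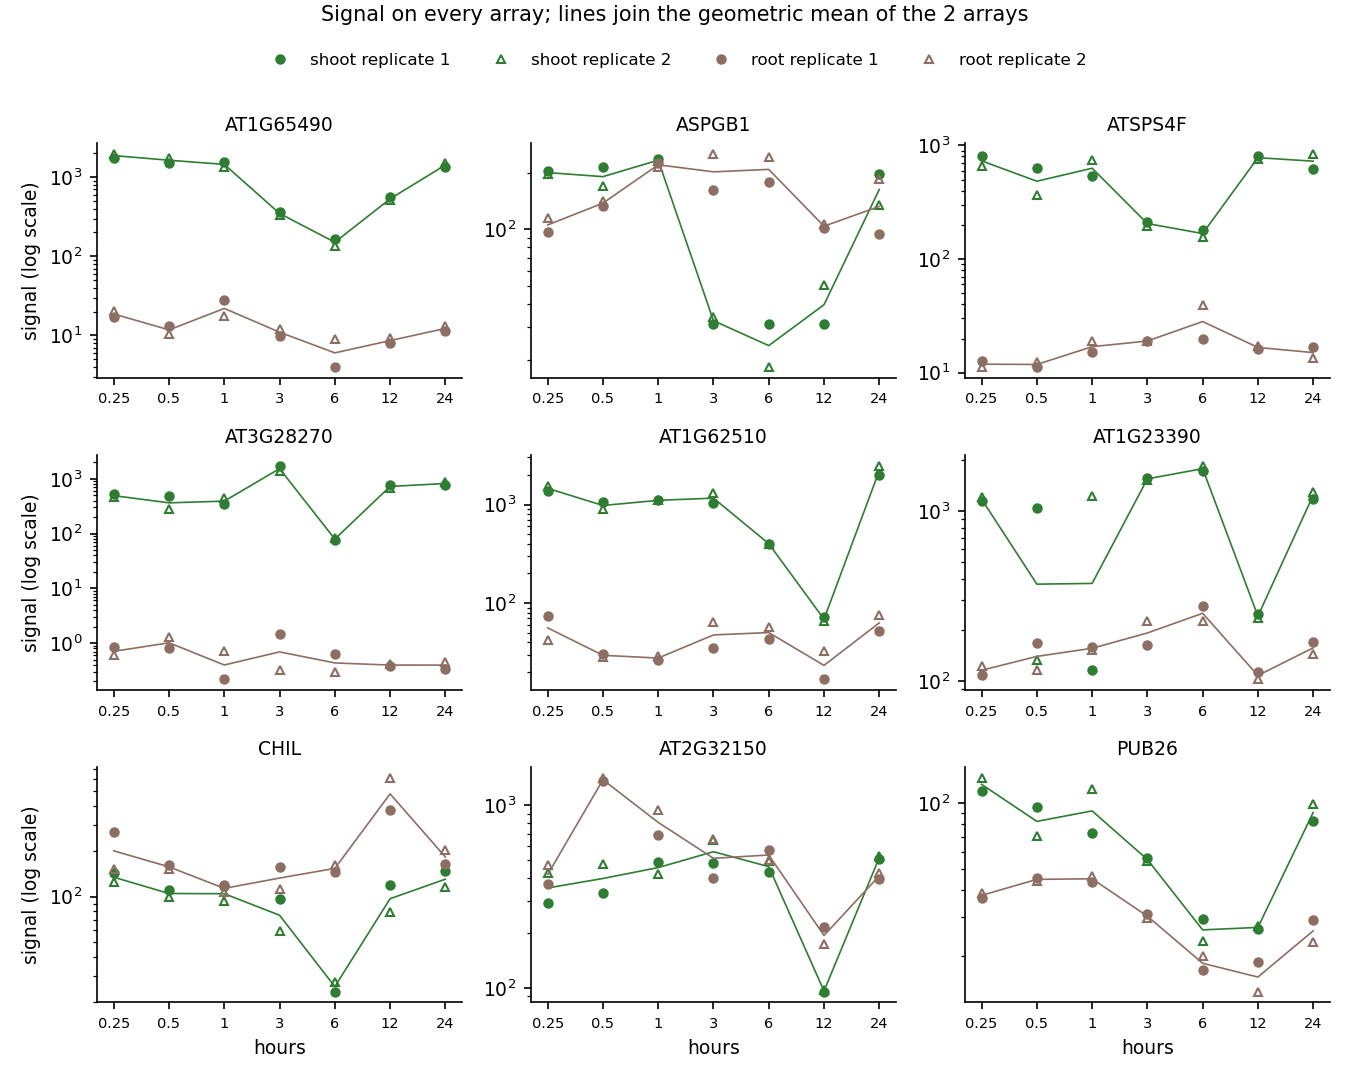
Signal on every array (log scale, vertical axis, scaled to each transcript) of 9 members at 7 times in hours (horizontal axis); green marks are shoot arrays and brown marks root arrays, filled circles replicate 1 and open triangles replicate 2, and lines join the geometric mean of the 2 arrays. The shoot lines dip at 6 h or 12 h and return at 24 h, AT1G23390 splits by matching pair at 0.5 h and 1 h (1039 and 1223 against 133 and 115), and CHIL peaks in roots at 12 h at 378 and 611.

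Whether the fall had begun by 3 h was tested on arrays that the selection did not use, the 2 shoot arrays of 3 h against the 4 of 0.5 h and 1 h. Of the 177 transcripts, 79 fell and 15 rose, where 13.6% of all 18183 probe sets tested fell and 13.4% rose (limma, Benjamini-Hochberg adjusted p under 0.05 over all probe sets tested). The median log2 change of the members was -0.54, against -0.01 over all probe sets tested. By the time of the lowest mean, 68 of the 94 transcripts lowest at 6 h fell and 1 rose, whereas 11 of the 83 lowest at 12 h fell and 14 rose. The last 2 counts are 13.3% and 16.9% of that class, near the shares over all probe sets tested. Without replicate 2 of shoot 3 h, 50 members fell and 7 rose, and the rises were 23 without replicate 1 of 0.5 h, 26 without replicate 2 of 1 h and 10 without replicate 1 of 3 h. The counts also depend on the early arrays as pairs. Against the pair of 0.5 h replicate 1 and 1 h replicate 2 alone, 92 fell and 12 rose, and against the pair of 0.5 h replicate 2 and 1 h replicate 1 alone, 68 fell and 38 rose. In the class lowest at 12 h the balance turned with the pair, with 21 falls and 11 rises against the first and 11 falls and 36 rises against the second, while the class lowest at 6 h had 71 falls and 1 rise against the first and 57 falls and 2 rises against the second. Called in the same direction under both pairs and in the pooled test were 61 falls and 10 rises.

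Of enzymes of primary metabolism, ASPGB1 (AT3G16150) changed most. It encodes an asparaginase, which releases ammonium from asparagine. In shoots it read 31.1 and 34.0 at 3 h, against 215 and 169 at 0.5 h and 236 and 230.3 at 1 h, so every 3 h array lay far below every earlier one. The log2 change was -2.63 ± 0.25 (SE, n = 2 and 4 arrays; limma adjusted p = 4.13e-07). The signal stayed low at 6 h, with 31.3 and 18.4, and at 12 h, with 31.3 and 50.2, and was 197 and 134 at 24 h. ATSPS4F (AT4G10120), a sucrose phosphate synthase and so an enzyme of sucrose making, read 214 and 197 at 3 h, against 634 and 369.5 at 0.5 h and 536 and 739 at 1 h. It fell by 1.42 ± 0.22 on the log2 scale (limma adjusted p = 0.000101, n = 2 and 4). It differed from ASPGB1 in being back at 12 h, with 803 and 757. Neither of these calls was lost under any alternative or left-out array tried.

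AT1G65490, for which no role is given here, was among the brightest members with a gene. In shoots it read 366 and 331 at 3 h, against 1519.7 and 1759 at 0.5 h and 1573 and 1334 at 1 h, a log2 change of -2.14 ± 0.20 (limma adjusted p = 2.72e-07, n = 2 and 4). At 6 h it stood at 166 and 137, at 12 h at 558 and 507 and at 24 h at 1359 and 1489. AT5G42760, of a methyltransferase family, read 56.5 and 48.3 at 3 h, against 152 and 163 at 0.5 h and 202 and 193 at 1 h, and fell by 1.72 ± 0.30 on the log2 scale (limma adjusted p = 0.000238, n = 2 and 4). Both were lowest at 6 h and showed no overlap between 3 h and the earlier arrays.

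The 2 probe sets of AT5G54130, a calcium-binding protein of the endonuclease, exonuclease and phosphatase family, give a check within a gene. The brighter one, 248191_at, read 87.0 and 74.7 at 3 h, against 209.6 and 224 at 0.5 h and 184 and 243 at 1 h, and the dimmer one, 248190_at, read 56.3 and 42.0 at 3 h, against 138 and 136 at 0.5 h and 101 and 123 at 1 h. Their log2 changes were -1.39 ± 0.20 and -1.31 ± 0.14 (limma adjusted p = 2.99e-05 and 1.69e-06, n = 2 and 4 each). The 2 probe sets moved alike, and both reached their lowest signal at 6 h, with 16.0 and 21.6 for the first and 15.4 and 10.7 for the second.

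Falls of other surface and wall proteins were less even. AT3G48460, a GDSL-type lipase, read 154 and 133 at 3 h, against 251 and 491 at 0.5 h and 599 and 296 at 1 h, and fell by 1.41 ± 0.28 on the log2 scale (limma adjusted p = 0.000904, n = 2 and 4). Against the pair of 0.5 h replicate 1 and 1 h replicate 2 alone its log2 change was -0.92. AT5G48540, of the cysteine-rich secreted proteins related to receptor kinases, read 54.0 and 46.9 at 3 h, against 107 and 341 at 0.5 h and 184 and 85.2 at 1 h, a log2 change of -1.58 ± 0.38 (limma adjusted p = 0.00384). Its call was lost without replicate 2 of shoot 3 h (adjusted p = 0.053), and its log2 change against the first pair alone was -0.90. Neither XTH32 (AT2G36870), a xyloglucan-modifying enzyme of the wall, nor EXPA8 passed the test at 3 h, with log2 changes of -0.21 ± 0.18 and -0.56 ± 0.46 (limma adjusted p = 0.445 and 0.414).

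Members of light, redox and sugar transport pathways were lower at 3 h than at 0.5 h and 1 h, with unequal certainty. AFR (AT2G24540), an F-box protein of far-red light signalling, read 218 and 185 at 3 h, against 291 and 389.6 at 0.5 h and 521 and 302 at 1 h (log2 change -0.86 ± 0.20, limma adjusted p = 0.00312), but the call was lost without replicate 2 of shoot 3 h (adjusted p = 0.0649), and the change was -0.56 against the first pair alone and -0.28 against 0.25 h (adjusted p = 0.268). GR1 (AT3G24170), a glutathione reductase, read 385 and 383 at 3 h, against 568 and 546 at 0.5 h and 568 and 563 at 1 h (log2 change -0.54 ± 0.12, limma adjusted p = 0.0025). SAG29 (AT5G13170), the sucrose transporter SWEET15, read 103 and 70.4 at 3 h, against 191 and 179 at 0.5 h and 188 and 173 at 1 h (log2 change -1.09 ± 0.33, limma adjusted p = 0.020), a call also lost without replicate 2 of shoot 3 h (adjusted p = 0.23), against the first pair alone (adjusted p = 0.0536) and against 0.25 h (log2 change -0.62, adjusted p = 0.255). In each of the 3 genes both 3 h arrays were under all 4 arrays of 0.5 h and 1 h. AT1G44000, a relative of the STAY-GREEN proteins of chlorophyll breakdown, and AT1G64500 did not pass, with log2 changes of -0.21 ± 0.14 and -0.71 ± 0.28 (limma adjusted p = 0.299 and 0.0721).

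A smaller number of transcripts went up before they went down. The 15 rises at 3 h were 8.47% of the members, under the 13.4% of all probe sets tested that rose. The 20 transcripts lowest at 12 h whose 6 h mean was at or above 0.25 h held 12 of the 15 rises at 3 h and none of the falls. AT3G28270, which encodes the At14a-like protein AFL1, was the 1 member lowest at 6 h that rose. It read 1721 and 1367 at 3 h, against 479 and 277 at 0.5 h and 341 and 448 at 1 h, and then 75 and 83.8 at 6 h, 770.2 and 682 at 12 h and 772 and 874 at 24 h. The log2 rise at 3 h was 2.02 ± 0.20 (limma adjusted p = 6.37e-07, n = 2 and 4) and was called under every alternative and left-out array tried. Between 3 h and 6 h the signal thus dropped to under 0.1 times its 3 h reading on both arrays.

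The other named rises rest on the early arrays. AT1G23390, a kelch F-box protein that marks chalcone synthase for breakdown, read 1574 and 1534 at 3 h, against 1039 and 133 at 0.5 h and 115 and 1223 at 1 h. The pair of 0.5 h replicate 1 and 1 h replicate 2 was close to the 0.25 h arrays, with 1153 and 1207, and the other pair was far below them. The log2 change was 2.05 ± 0.65 with the 4 arrays pooled (limma adjusted p = 0.0252), 0.46 against the first pair and 3.63 against the second. The call was lost against 0.25 h (log2 0.40, limma adjusted p = 0.066) and with only shoot arrays in the fit (limma adjusted p = 0.1). It was also lost without replicate 2 of 0.5 h (log2 1.31), replicate 1 of 1 h (log2 1.2) or either 3 h array (log2 2.03 and 2.06). AT4G27450, of the aluminium-induced protein family, read 461 and 666 at 3 h, against 408 and 136 at 0.5 h and 160.5 and 412 at 1 h. Its log2 change was 1.16 ± 0.38 (limma adjusted p = 0.0291), 0.43 against the first pair and 1.90 against the second. Its call was lost without any 1 of replicate 2 of 0.5 h (log2 0.77), replicate 1 of 1 h (log2 0.83), replicate 1 of 3 h (log2 1.43) or replicate 2 of 3 h (log2 0.90). With only shoot arrays in the fit the call was lost too (limma adjusted p = 0.066). AT5G42250, of the alcohol dehydrogenase family, read 173 and 208 at 3 h, against 130.2 and 85.2 at 0.5 h and 78.4 and 108 at 1 h (log2 change 0.94 ± 0.27, limma adjusted p = 0.0129), and its call was lost without replicate 2 of 3 h (log2 0.81, adjusted p = 0.14), against the first pair alone (log2 0.67, adjusted p = 0.099) and against 0.25 h (log2 0.51, adjusted p = 0.20).

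The split of the early shoot arrays touched the transcripts of the second class most. The mean of 0.5 h replicate 1 and 1 h replicate 2 was 1.24 times that of the other pair in the median member. It was at least 2 times higher in 35 members, of which 5 were lowest at 6 h, and at least 2 times lower in 2. In all, 20.9% of the members differed by 2 times or more between the pairs, against 8.45% of all probe sets tested. Relative to 0.25 h the first pair had a median of 0.929 and the second of 0.723. AT1G23390 differed by 9.11 times, AT2G24550 by 4.32 times and EXPA8 by 3.90 times, with EXPA8 at 673 and 859 in the first pair and 166 and 229 in the second. What set the pairs apart was not tested, and it bears on every shoot comparison with 0.5 h and 1 h. It also enters the root tests, because all groups share 1 estimate of the spread per probe set. For AT1G23390 the SE was 0.65 in roots at 3 h as well as in shoots.

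**Figure D3:**
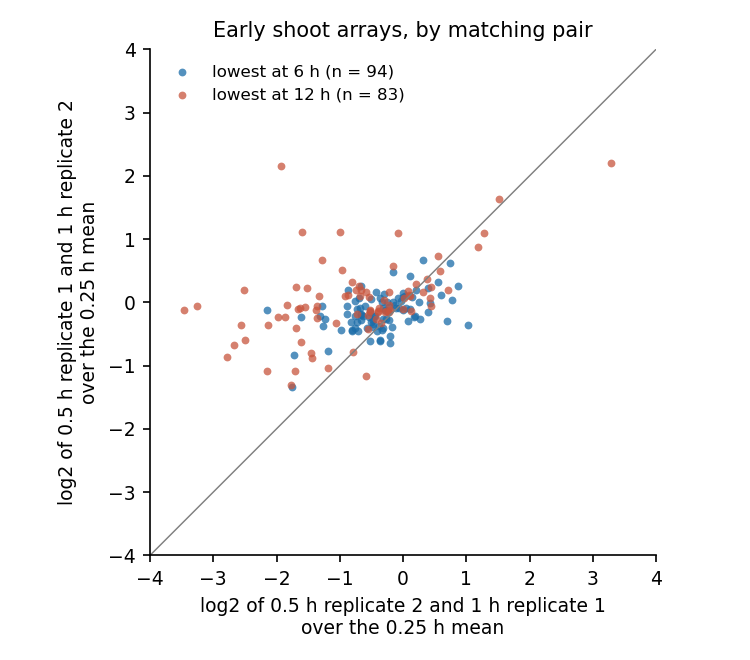
Log2 of the mean of shoot 0.5 h replicate 1 and 1 h replicate 2 over the 0.25 h mean (vertical axis) against the same for 0.5 h replicate 2 and 1 h replicate 1 (horizontal axis), 1 point per transcript, coloured by the time of the lowest shoot mean; the line marks equality. In 35 transcripts the first pair is at least 2 times the second, and 5 of these are of the class lowest at 6 h.

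The change at 3 h was set against that in roots by testing the difference between the organs, shoot change minus root change. The difference was below 0 for 52 members and above 0 for 6, where it was below 0 for 6.4% and above 0 for 5.18% of all probe sets tested (limma adjusted p under 0.05). Of the 52, 47 belonged to the class lowest at 6 h. The median difference of members was -0.46, against -0.07 over all probe sets tested. Without replicate 2 of shoot 3 h, 33 differences below 0 and 3 above 0 were called. The count above 0 was 12 without replicate 1 of shoot 0.5 h and 14 without replicate 2 of shoot 1 h. Against the first early pair alone 71 differences were below 0 and 6 above, and against the second 46 below and 28 above. Of the calls, 41 of those below 0 and all 6 above 0 were made under each pair as well as in the pooled test.

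In roots themselves few of the members moved at 3 h: 9 fell and 6 rose, where 3.64% and 3.6% of all probe sets tested did so. The median log2 change was 0.04, against 0.07 over all probe sets tested. With each array scaled to its median the split was 14 falls and 4 rises, with quantile normalization 15 and 6, and with a fit on root arrays alone 10 and 11. Without replicate 2 of root 3 h, 3 fell and none rose, 5 fell and 5 rose without replicate 1 of root 0.5 h, and 3 rose without replicate 2 of root 1 h. The shares of members called in roots at 3 h were thus close to the shares over the whole array.

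ASPGB1 had the widest gap of any named member. Its roots read 162 and 253 at 3 h, against 133 and 142 at 0.5 h and 227 and 214 at 1 h, so they overlapped while the shoot arrays did not. The difference of the 2 changes was -2.84 ± 0.36 (limma adjusted p = 6.17e-05). For AT5G42760 the difference was -2.29 ± 0.42 (limma adjusted p = 0.00156), although its root signal was 2.61 to 14.1 on all 14 arrays, near the low end. For AT5G54130 it was -2.01 ± 0.28 and -2.0 ± 0.20 by its 2 probe sets (limma adjusted p = 0.000125 and 5.44e-06), with the brighter probe set at 102 and 168 in roots at 3 h, against 84.1 and 69.6 at 0.5 h and 107 and 81.2 at 1 h. The dimmer probe set also rose in roots (log2 change 0.69 ± 0.14, limma adjusted p = 0.00536; adjusted p = 0.151 without replicate 2 of root 3 h). The brighter one did not pass there (0.62 ± 0.20, limma adjusted p = 0.0626).

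BGLU40 (AT1G26560), a beta-glucosidase, rose in roots, while its shoot fall was at the edge of the threshold. In shoots it read 257 and 244 at 3 h, against 390.3 and 336 at 0.5 h and 299.6 and 472 at 1 h, and in roots 40.6 and 44.1 at 3 h, against 18.6 and 14.3 at 0.5 h and 28.3 and 22.4 at 1 h. The root rise was 0.99 ± 0.20 on the log2 scale (limma adjusted p = 0.00483), lost without replicate 2 of root 3 h (adjusted p = 0.084), and the difference between organs was -1.55 ± 0.29 (limma adjusted p = 0.00178). Its shoot change of -0.56 ± 0.20 had a limma adjusted p of 0.0494, and the call was lost without any single array of shoot 0.5 h or 3 h and without replicate 2 of shoot 1 h (adjusted p of 0.051 to 0.22), with no filter, no added constant, median scaling, array weights or no trend in the variance prior (0.053 to 0.067), and against the second early pair alone (log2 -0.34, adjusted p = 0.26). AT3G57020, of the strictosidine synthase-like family, read 280.2 and 276 in roots at 3 h, against 141 and 182 at 0.5 h and 112 and 123 at 1 h (log2 change 1.01 ± 0.21, limma adjusted p = 0.00508; adjusted p = 0.063 without replicate 2 of root 3 h). AT5G43150 rose by 0.51 ± 0.13 on the log2 scale in roots (limma adjusted p = 0.0174), a call lost without either 3 h array (adjusted p = 0.091 and 0.15) and without replicate 2 of 0.5 h (0.071) or of 1 h (0.074).

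The differences above 0 included AT2G32150 and AT5G59080, which fell in roots while their shoot change did not pass the test. AT2G32150, a hydrolase of the haloacid dehalogenase family, read 399 and 657 in roots at 3 h, against 1348 and 1406 at 0.5 h and 685 and 946 at 1 h (log2 change -1.04 ± 0.20, limma adjusted p = 0.00284), and without replicate 1 of root 3 h the change was -0.68 with an adjusted p of 0.10. Its root reading at 0.25 h was 373 and 468, so the fall followed an early peak in roots. AT5G59080 read 7.78 and 10.9 in roots at 3 h, against 27.4 and 39.2 at 0.5 h and 16.5 and 34.9 at 1 h (log2 change -1.43 ± 0.30, limma adjusted p = 0.00535; adjusted p = 0.081 without replicate 1 of root 3 h). With a larger added constant that change was -0.89. The differences between organs were 1.42 ± 0.28 and 1.95 ± 0.42 (limma adjusted p = 0.00277 and 0.00528). AT1G19450, a sugar transporter, fell alike in both organs, by 0.73 ± 0.13 in shoots and by 0.71 ± 0.13 in roots on the log2 scale (limma adjusted p = 0.000378 and 0.00218). Its difference was -0.02 ± 0.19 (limma adjusted p = 0.97), and the root call was lost without replicate 2 of root 3 h (adjusted p = 0.076).

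**Figure D4:**
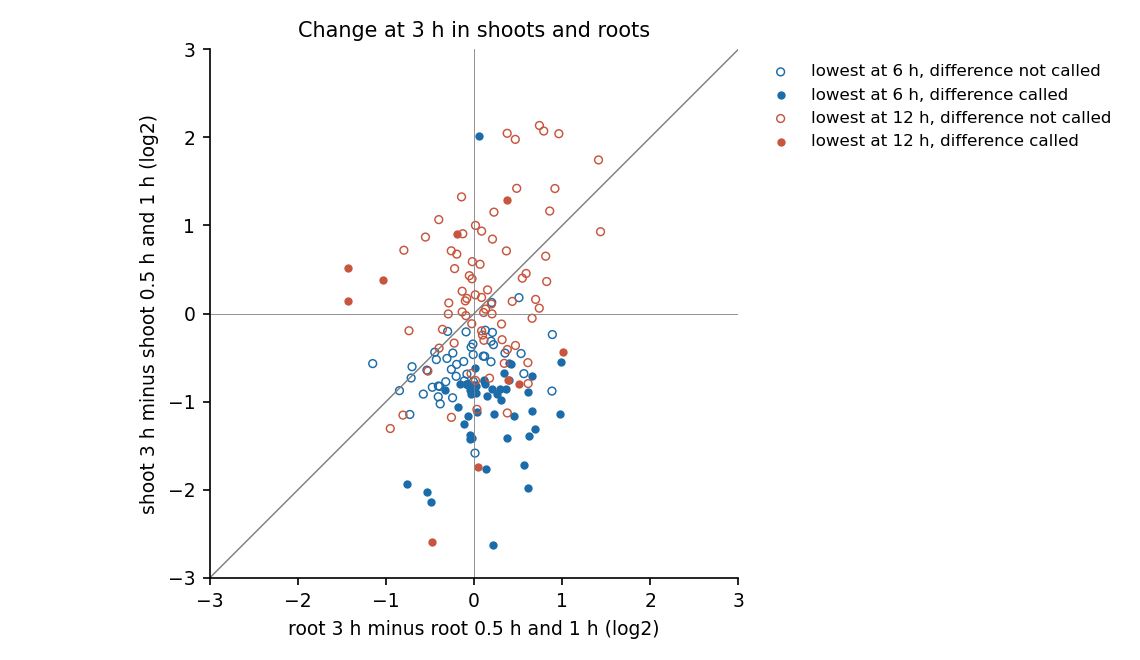
Log2 change in shoots (vertical axis) against that in roots (horizontal axis) at 3 h relative to the pooled 0.5 h and 1 h arrays, 1 point per transcript; filled points have a called difference between the organs, blue points are lowest in shoots at 6 h and red points at 12 h, and the line marks equal change. The 47 filled blue points below the line and the single one above it, AT3G28270, show that the called differences below 0 are nearly all of the class lowest at 6 h.

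Roots at 12 h were also free of the selection, since its root condition used 0.25 h and 6 h only. Against the pooled 0.5 h and 1 h arrays, 29 members fell and 21 rose, where 7.86% of all probe sets tested fell and 10.3% rose (limma adjusted p under 0.05). The median was -0.07, against 0.08 over all probe sets tested. The classes went different ways here too: 9 of the 94 transcripts lowest at 6 h in shoots fell in roots and 18 rose, and 20 of the 83 lowest at 12 h fell and 3 rose. The difference between the classes was not tested. The spread used in these root tests includes the split of the early shoot arrays, which was wider in the class lowest at 12 h. Among the 20 with a 6 h shoot mean at or above 0.25 h, 7 fell and none rose. Without replicate 2 of root 12 h the 21 rises became 13. Of the 44 members whose root mean was under 20 at every time, 3 fell and 1 rose, so most of these calls came from transcripts with a measurable root signal.

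CHIL and UGT78D2, both of flavonoid metabolism, rose in roots at 12 h. They were picked by the size of that rise. The 2 genes tested of the flavonoid synthesis list, DFR and CHI, were not called in roots at 12 h, with a median log2 change of 0.32. CHIL (AT5G05270), a chalcone isomerase-like protein that aids flavonoid synthesis, read 378 and 611 at 12 h, against 163 and 153 at 0.5 h and 119.7 and 108 at 1 h, a log2 change of 1.83 ± 0.24 (limma adjusted p = 3.27e-05, n = 2 and 4). UGT78D2 (AT5G17050), which adds glucose to flavonols and anthocyanidins, read 299.8 and 379 at 12 h, against 133 and 120.5 at 0.5 h and 131 and 139 at 1 h, a log2 change of 1.35 ± 0.18 (limma adjusted p = 3.36e-05). Neither set of arrays overlapped its reference. In shoots at 12 h, CHIL read 119 and 78.8 and UGT78D2 199 and 156, after lowest readings at 6 h of 23.5 and 27.4 for CHIL and of 64.8 and 64.1 for UGT78D2. AT3G57020 also rose in roots, with 314 and 505 at 12 h and a log2 change of 1.52 ± 0.21 (limma adjusted p = 4.84e-05). XTH32 read 45.8 and 71.4 in roots at 12 h, against 37.1 and 32 at 0.5 h and 26.8 and 30.8 at 1 h (log2 change 0.82 ± 0.18, limma adjusted p = 0.00344), and without replicate 2 of root 12 h the change was 0.52 with an adjusted p of 0.14.

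Falls in roots at 12 h among members with a gene were led by AT2G32150, with 216 and 174 at 12 h and a log2 change of -2.43 ± 0.20 (limma adjusted p = 1.38e-07). Its shoot arrays read 95.6 and 97.2 at the same time, so it was low in both organs then, having passed the root condition at 6 h. PUB26 (AT1G49780), a U-box ubiquitin ligase, read 18.7 and 13.7 in roots at 12 h, against 45.7 and 43.9 at 0.5 h and 43.6 and 46.6 at 1 h (log2 change -1.38 ± 0.17, limma adjusted p = 2.05e-05), and 26.5 and 27.5 in shoots. AT5G59080 read 6.05 and 9.98 in roots at 12 h (log2 change -1.62 ± 0.30, limma adjusted p = 0.000776; -0.97 with a larger added constant). AT1G73480 read 67.6 and 58.2 in roots at 12 h, against 117 and 133 at 0.5 h and 152 and 134 at 1 h (log2 change -1.07 ± 0.26, limma adjusted p = 0.00666; adjusted p = 0.0881 without replicate 2 of root 12 h). These 4 transcripts thus ran low in roots as well, 6 h after the time at which the selection looked at roots.

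At 24 h in roots 9 members were lower and 19 higher than at 0.5 h and 1 h, where 6.47% of all probe sets tested were lower and 7.03% higher. The median was 0.05, against 0.09. These calls rest on few arrays: 28 in all, they were 12 without replicate 1 of root 24 h, 14 without replicate 2 of root 24 h and 17 without replicate 2 of root 1 h. AT2G32150 was lower than at its early peak, with 394 and 429 at 24 h and a log2 change of -1.35 ± 0.20 (limma adjusted p = 0.000138), and overlapped its 0.25 h readings of 373 and 468. PUB26 read 29.2 and 23.2 (log2 change -0.74 ± 0.17, limma adjusted p = 0.00745), a call lost without replicate 2 of root 24 h (adjusted p = 0.14). AT5G43150 read 567 and 574, against 310.4 and 251 at 0.5 h and 351 and 283 at 1 h (log2 change 0.94 ± 0.13, limma adjusted p = 6.14e-05). AT1G62510, with 52.2 and 76.5 at 24 h against 30.7 and 28.6 at 0.5 h and 26.4 and 29.2 at 1 h, had a log2 change of 1.09 ± 0.25 (limma adjusted p = 0.00618; adjusted p = 0.14 without replicate 2 of root 24 h).

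Most of the transcripts were brighter in shoots than in roots. On the arrays of 0.5 h, 1 h and 3 h, 137 of 177 were higher in shoots and 20 lower, where 28.5% of all probe sets tested were higher and 51.2% lower (limma adjusted p under 0.05). The median log2 difference, shoot minus root, was 2.25, against -0.28 over all probe sets tested, which became -0.15 with quantile normalization and -0.08 with arrays scaled to their medians. The selection asked for a bright shoot signal at 0.25 h, so a level above that of roots is in part set by it. Its root condition also could not fail for transcripts under 20 in roots at 0.25 h, which were 54 of the members. Under the same brightness and depth conditions, 35 of the 104 probe sets that did not return by 24 h were higher in shoots and 48 lower, with a median of -0.24. Root means at 0.25 h ran from 0.377 to 2065 with a median of 59.1, beside shoot means of 104 to 3662 with a median of 303. Root means stayed under 20 at every time in 44 members and reached 100 at some time in 80.

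Among members with a gene, the largest organ differences belonged to AT3G28270, at 7.80 ± 0.14 on the log2 scale, THI2.2 at 6.80 ± 0.17, AT2G42220, a rhodanese-like protein, at 6.59 ± 0.23 and AT1G13650 at 6.58 ± 0.29 (limma adjusted p = 1.05e-19, 7.28e-18, 1.77e-15 and 5.73e-14). Their root arrays read 0.217 to 1.45, 1.64 to 8.75, 3.38 to 16.6 and 0.223 to 1.15 over all times, near the low end of the array, so the size of these differences depends on the constant added before the logarithm. With a larger constant AT1G13650 differed by 4.17. The opposite order was seen for AT4G27450, which read 461 and 666 in shoots at 3 h and 1849 and 2530.5 in roots at 3 h, with a log2 difference of -2.17 ± 0.25 over the 3 times (limma adjusted p = 2.1e-07). AT5G46780, a VQ-motif protein, differed by -1.65 ± 0.21, AT5G48540 by -1.31 ± 0.25 (-2.37 at 3 h alone) and AT2G24550 by -1.16 ± 0.30 (limma adjusted p = 4.48e-07, 9.51e-05 and 0.00168). Dipping and returning in shoots was thus not limited to transcripts found mainly in shoots: 21 members were brighter in roots than in shoots at 0.25 h.

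**Figure D5:**
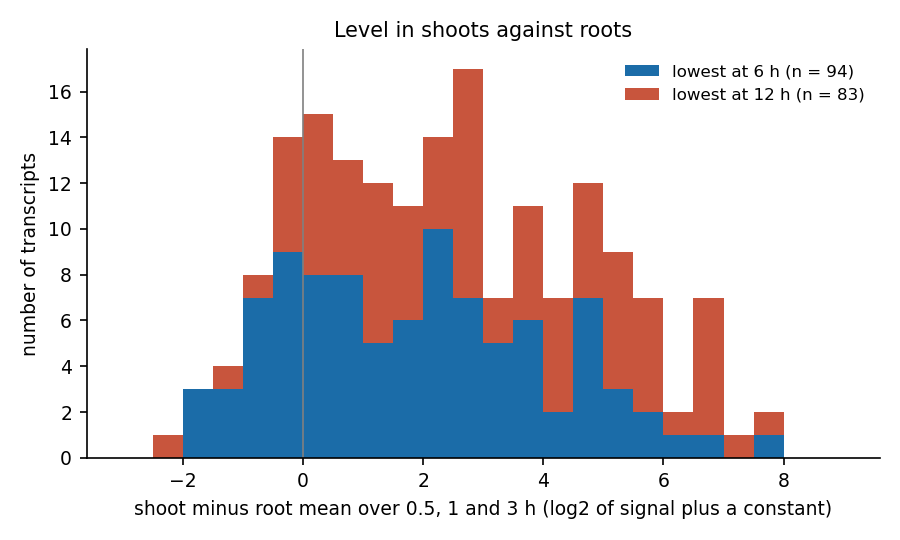
Number of transcripts (vertical axis, stacked bars) by the log2 difference of the mean level in shoots minus that in roots over 0.5, 1 and 3 h (horizontal axis, bins of 0.5), blue for the 94 lowest in shoots at 6 h and red for the 83 lowest at 12 h. Most bars lie right of 0, with a median of 2.25, and the leftmost bar is AT4G27450 at -2.17.

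Set beside the transcripts most like them, the members differed in the return and in roots, as the selection requires. A further 20 probe sets met the same shoot conditions but had lost at least 50% of the root signal at 6 h. In tests outside the selection, 12 of these 20 fell in shoots at 3 h and none rose, 8 fell in roots at 3 h, and 14 fell and none rose in roots at 12 h. Of the 104 probe sets as deep in shoots but under 0.7 times at 24 h, 67 fell and 4 rose in shoots at 3 h, beside 79 and 15 of the 177 members. Of those 104, 17 fell and 16 rose in roots at 12 h, beside 29 and 21 of the members. Whether these shares differ was not tested.

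Other genes of related pathways, taken from lists that were written down as a whole, mostly lay outside the set. Their counts stand beside shares of 13.6% falling and 13.4% rising in shoots at 3 h, and 3.64% and 3.6% in roots, over all probe sets tested. Of 27 xyloglucan enzyme and expansin genes measured, XTH32 and EXPA8 were members, and of 23 tested 5 fell and 1 rose in shoots at 3 h. Of 18 glutaredoxin genes of the list measured none was a member, and of 17 tested 9 fell and 1 rose in shoots at 3 h, with a median log2 change of -0.80. The list did not hold the member AT1G64500, described above as of the glutaredoxin fold. AT4G15690, a glutaredoxin, fell by 2.38 on the log2 scale (limma adjusted p = 0.0001) but stood at 0.735 times its 0.25 h mean at 6 h, 0.393 times at 12 h and 0.0325 times at 24 h, so it met neither the depth nor the return condition. Of 12 auxin genes 9 were tested, 1 fell in shoots at 3 h and none was a member. None of the 6 genes of light harvesting and photosystems was a member, and none passed the test at 3 h in either organ. Of 4 dehydration and abscisic acid response genes 2 rose in shoots at 3 h, and of 2 flavonoid synthesis genes 1 did, again with no member among them. Of 3 evening clock genes none was a member, 1 rose in shoots at 3 h, and 2 rose in roots. The gibberellin list had 2 falls and 2 rises among 4 genes in shoots at 3 h, the jasmonate list 2 rises among 4, and the glucosinolate list 1 rise among 2. Of the other lists, type A response regulators had 1 fall among 2 genes, and phytochrome interacting factors and sulfate assimilation, of 2 genes each, had no call in shoots at 3 h.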

How the data were processed

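The labels gave the organ, time and replicate number of each of the 28 arrays. The deposited table holds linear signal intensities, made with MAS5 per the submitters' processing notes (its release is not given in the sources used here). This method combines each probe set's probe pairs into a signal and scales every array to a common mean, so a shift shared by most transcripts cannot be seen. No detection calls were used.

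From these intensities, log2(signal + 1.95) was computed, the constant being the 10th percentile of all values, which understates changes of dim transcripts. Probe sets above the 30th percentile of their array on both arrays of at least 1 group were tested (18183, with 4563 removed), and all 177 members passed. A linear model of the 14 group means was fitted with limma 3.58.1 (R 4.3.3), with a variance prior that follows the mean level and 14 residual degrees of freedom. Two-sided tests were adjusted by the Benjamini-Hochberg method within each comparison over all probe sets tested, at 0.05. Precision is limited by the number of arrays. Replicate numbers did not pair the arrays: over 91 pairs of groups, same-numbered deviations correlated at -0.58 to 0.20, with a median of 0.005.

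Gene names came from the platform table (13513 probe sets with 1 gene, 503 with several, 8730 with none), and 13436 of the first matched the TAIR10.1 table of RefSeq. Of the members, 3 have probe sets that can share signal with other genes, none of them named. The members and the gene lists were chosen with earlier results of these data known. Named genes were the deepest and brightest members, the largest called changes in each comparison, called differences between organs and members of the lists, with exceptions stated as such. The lists of morning clock genes, B-box factors, nitrate assimilation and brassinosteroid synthesis had no measured gene. Promoter motifs were not analysed here. Alternatives changed the constant, the filter, the scaling, the variance prior, array weights, a replicate block, the arrays in the fit, the early reference arrays, the selection and each array left out.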

Additional observations from a re-analysis of the deposited data

Results flagged for a closer look

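The change at 3 h differed between shoots and roots, by limma's test of the difference itself, for 58 of the 177 transcripts. Among the named members the differences, shoot change minus root change on the log2 scale, were -2.84 for ASPGB1, -2.29 for AT5G42760 and -2.01 for AT5G54130. In these the shoot signal fell, while the root log2 changes were 0.21, 0.57 and 0.62. The differences were 1.96 for AT3G28270, 1.95 for AT5G59080 and 1.42 for AT2G32150, where the shoot change lay above the root change. The root signals of AT3G28270 and AT5G42760 lay near the low end of the array throughout, and with no constant added the difference of AT3G28270 had an adjusted p of 0.095. With only the arrays of the groups compared, that of AT5G59080 had an adjusted p of 0.058. Of the 58 calls, 41 below 0 and 6 above 0 were also made with each early pair alone. How much of the size of each difference goes with the split between the early shoot arrays was not tested.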

How the results depend on the processing

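With each array left out in turn, the number of transcripts called ran from 57 to 100 for shoots at 3 h, from 3 to 18 for roots at 3 h, from 36 to 65 for the difference between organs and from 12 to 30 for roots at 24 h. Array weights gave 43 calls for roots at 24 h. The selection held 503 transcripts with a depth of 0.5 times, 106 with 0.25 times and 113 with a return to 0.9 times. With the replicate number as a block the counts were 93, 14, 58, 51, 25 and 158 for shoots at 3 h, roots at 3 h, the organ difference, roots at 12 h, roots at 24 h and the organ level, all within 1.5 times of those reported. At 3 h alone, the shoot minus root level was -0.68 for AT5G54130, 0.12 for AT2G32150, -0.0077 for AT3G57020 and -0.42 for AT5G43150, each against its sign over the 3 times. AT5G43150 also changed by 0.23 in shoots at 3 h against 0.25 h, where it fell against 0.5 h and 1 h. Of 1698 alternative values for 82 called results of named genes, 1604 kept the call, 89 lost it and 5 reversed; the cause was not tested. Signals near the low end have no stated background, and 2 arrays per group limit every test. Motif counts in promoters were planned and not run.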
